A study of Homo sapiens with 6 samples.

Results

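The genes described here are 10 genes of interleukin-1 signalling, namely the ligands IL1B, IL1A, IL18 and IL33, the antagonist IL1RN, the decoy protein IL18BP, the receptor chains IL1R1, IL1RAP and IL1RL1, and the receptor-proximal kinase IRAK2. They were chosen by name, with earlier results of these data known. Each was found as 1 row among the 37902 genes of the table of normalised counts. Of the 10 genes, 2 lie outside the family of ligands and receptors in the strict sense, since IL18BP is a soluble binding protein and IRAK2 is a kinase.

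The interleukin-1 family consists of cytokines that start and amplify inflammation, and of the receptors that carry their signal. IL-1α, encoded by IL1A, and IL-1β, encoded by IL1B, bind the same receptor chain, IL1R1, which then recruits the accessory chain IL1RAP, and the assembled receptor signals through MYD88 and kinases of the IRAK group to NF-kB. IL-1β and interleukin-18 are made as precursors that caspase-1 cuts before they become active, and the family is held in check by the receptor antagonist IL1RN, by IL18BP, which traps interleukin-18, and by decoy receptors. The retinal pigment epithelium (RPE), the cell layer that supports the photoreceptors, is known to answer IL-1β by releasing chemokines.

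The study asked how loss of POLDIP2 changes the RPE transcriptome, using ARPE-19, an established human cell line of RPE origin. Polyadenylated RNA of 3 biological replicates of wild type cells (WT) and 3 of the knockout line (POLDIP2 KO) was sequenced, which gives 6 libraries. Both groups carry the labels ARPE19, Regular maintenance for treatment, and Day 3 for time. The genotype is labelled POLDIP knockout in one group and wildtype in the other. The POLDIP2 KO line came from cells transduced with a lentivirus that expresses SpCas9 and a guide RNA aimed at the POLDIP2 coding sequence, then selected with puromycin and expanded. The methods describe no isolation of single clones and no transduction of the WT cells, so the presence of virus, Cas9 and selection cannot be told apart from the loss of POLDIP2.

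The libraries held 31532797 to 45795509 reads each, as recovered from the normalised counts. POLDIP2 itself had normalised counts of 3919, 4827 and 4798 in WT and 1063, 1248 and 1143 in POLDIP2 KO, which matches the labels. Among 15 RPE markers, RPE65 and TTR were at 0 in all 6 libraries, TYR had no more than 3 reads in any, and none of the 12 tested was called (limma, lowest adjusted p = 0.731, 1 with an unadjusted p under 0.05, and 0 called by DESeq2 too). A normalised count is a read count divided by a size factor that puts libraries on a common depth. Differences were tested with limma on log2(normalised count + 1) for the 14684 genes with a mean of at least 10, and a gene was called at an adjusted p under 0.05 and a fold change over 1.5. Fold changes on this scale are understated for genes with few reads.

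IL1B rose in POLDIP2 KO and was the only one of the 10 genes to be called. Of the 10 genes, 7 had enough reads to be tested and 1 was called, in the upward direction. Over all genes tested, 0.0817% were called upward and 0.170% in either direction. The study had already named IL1B among its top upregulated genes from the same libraries, so this call is no independent evidence. The median log2 fold change of the 7 was 0.38, beside -0.000288 over all genes tested. IL1A, IL33 and IL1RL1 fell under the limit for testing. The 6 tested genes that were not called, IL18, IL1RN, IL18BP, IL1R1, IL1RAP and IRAK2, had libraries of both lines in the same range.

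**Figure D1:**
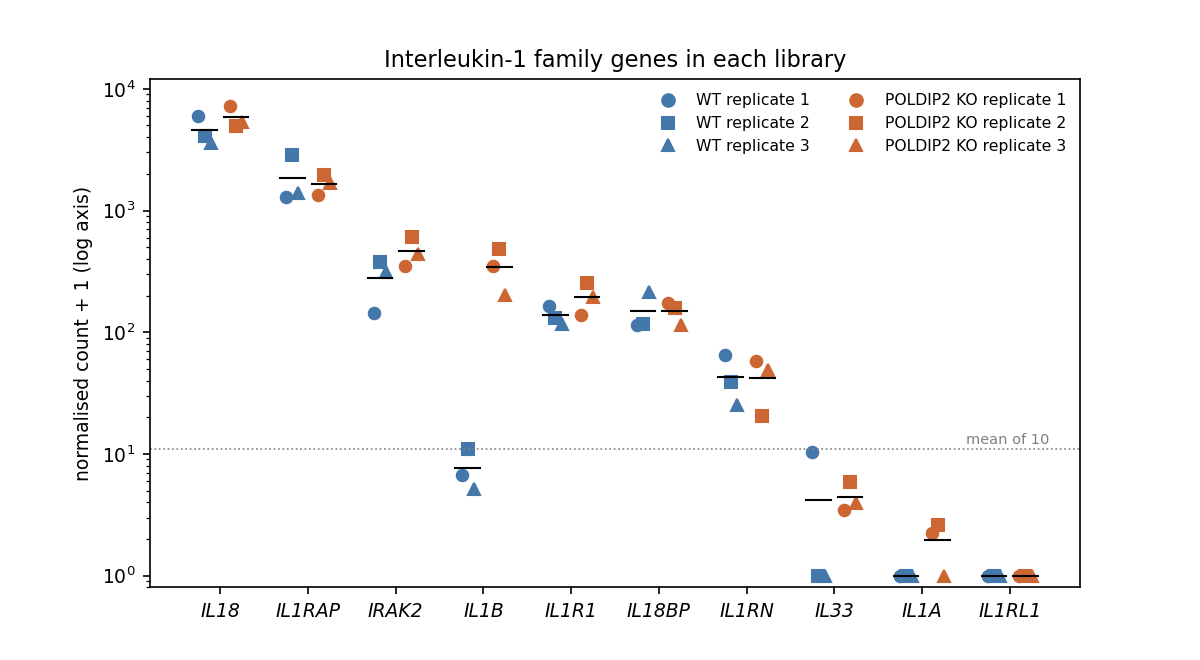
Normalised count + 1 (log axis) of the 10 genes in each of the 3 WT and 3 POLDIP2 KO libraries, 1 point per library. The genes are ordered by their mean in POLDIP2 KO, and a dotted line marks a normalised count of 10. IL1B is the gene whose points separate by line, with WT between 4.18 and 10.03 and POLDIP2 KO between 199.6 and 485, and IL18 is the most abundant in every library.

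IL1B (ENSG00000125538) lies on chromosome 2 of GRCh38, from 112829751 to 112836816 on the minus strand. Its normalised counts were 5.67, 10.03 and 4.18 in WT, listed by replicate number here and throughout, and 351, 485 and 199.6 in POLDIP2 KO. In reads, these values rest on 6, 10 and 4 in WT and on 285, 596 and 201 in POLDIP2 KO. The lines were thus far from overlapping, and the WT level was close to the limit of detection while the POLDIP2 KO level was not. IL1B was the only tested gene of the 10 without overlap, in a table in which the lines separated, with POLDIP2 KO above WT, for 5.46% of all tested genes. The ratio of the means was 52.1. In limma the log2 fold change of IL1B was 5.49 with a standard error of 0.454, a 95% confidence interval of 4.41 to 6.56 and an adjusted p of 0.0204. By the size of the upward log2 fold change IL1B ranked 4 among all genes tested. An exact two-sided permutation test gave p = 0.1, the smallest value that 3 libraries against 3 allow.

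Libraries with the same replicate number gave much the same difference in IL1B. The difference of log2(normalised count + 1), POLDIP2 KO minus WT, was 5.72 between the libraries numbered 1, 5.46 between those numbered 2 and 5.28 between those numbered 3, a spread of 0.223 (SD, n = 3). The WT side of these differences rests on 6, 10 and 4 reads, so the small spread says little about their precision. That the numbers pair the libraries is an assumption. IL1B also passed with edgeR on the recovered reads (adjusted p = 0.0287), where 0.116% of all genes tested were called, and with DESeq2 (adjusted p = 3.27e-24), where 1.66% were. When 1 library was removed, whichever it was, the log2 fold change of IL1B was 5.20 to 5.83. The limma adjusted p was 0.0541 to 0.0994, so that IL1B was not called in any of these 6 fits. Over all genes tested these fits called 0 to 5, and POLDIP2 itself had a limma adjusted p of 0.0202 to 0.0886 in them. In bulk RNA, more cells that express IL1B and more IL1B RNA per cell cannot be told apart.

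IL1A (ENSG00000115008), the gene of the other IL-1 receptor agonist, lies 45.258 kb from IL1B on the same strand of chromosome 2, from 112773925 to 112784493. It had 0 reads in all 3 WT libraries and 1, 2 and 0 reads in POLDIP2 KO. All 6 values were at or below the 3 reads that a count of 0 still allows, so no fold change is given. IL1B and IL1A therefore differed in whether they could be detected in POLDIP2 KO, at 285, 596 and 201 reads beside 1, 2 and 0.

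The sequence just before the RefSeq transcription start is shown for IL1B, the gene that was called, for IL1A, its undetected neighbour, and for IRAK2, a tested gene that was not called. These are from RefSeq on GRCh38.p14, in the direction of transcription, and 9 of the 10 genes had an entry, IL18 being without one. Capitals mark matches, on either strand, to an NF-kB core (GGG, any 3 bases, then TTCC), an AP-1 site (TGANTCA) or a TATA box (TATAAA), where N is any base. For IL1B the last 37 bases are left out, since GENCODE places them in an exon. The windows are chr2:112836817-112837029 on the minus strand for IL1B, chr2:112784494-112784743 on the minus strand for IL1A and chr3:10164669-10164918 on the plus strand for IRAK2.
IL1B: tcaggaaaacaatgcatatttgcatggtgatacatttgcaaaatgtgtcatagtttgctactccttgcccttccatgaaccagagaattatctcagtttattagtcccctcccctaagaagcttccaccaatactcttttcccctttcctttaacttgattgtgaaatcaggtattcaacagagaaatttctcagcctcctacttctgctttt
IL1A: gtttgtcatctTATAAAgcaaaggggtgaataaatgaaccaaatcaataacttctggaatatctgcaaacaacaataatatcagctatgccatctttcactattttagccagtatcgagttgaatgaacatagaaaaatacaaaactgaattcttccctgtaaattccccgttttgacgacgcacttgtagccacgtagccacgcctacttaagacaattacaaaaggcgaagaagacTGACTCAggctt
IRAK2: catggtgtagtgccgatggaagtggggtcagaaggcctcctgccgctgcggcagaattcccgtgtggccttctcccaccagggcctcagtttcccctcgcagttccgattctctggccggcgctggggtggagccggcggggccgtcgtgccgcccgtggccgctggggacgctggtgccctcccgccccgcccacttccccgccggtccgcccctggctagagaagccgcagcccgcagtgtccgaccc

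None of these letters was matched in the 250 bases before IL1B or before IRAK2. In IL1A, TGACTCA was found from -12 to -6 and TATAAA from -239 to -234, counted from -1 for the base just before the start. Of the 9 genes with a sequence, IL1RN alone held an NF-kB core, at -97 to -88, in a stretch that GENCODE lists as an exon of another transcript, shown with 10 bases on either side (chr2:113127491-113127520, plus strand).
IL1RN: aatgcgaggaGGGTATTTCCgcttctcgca

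IL1RN also held a TATA box at -30 to -25 and a second on the other strand at -32 to -27 that overlaps it, and IL1RL1 held a TATA box at -29 to -24. In 35093 windows of the same length before RefSeq starts, 5.67% held the NF-kB core, 6.57% the AP-1 site and 10.7% the TATA box, and 6 of the 9 genes had no match to any of them. The share of G and C was 40% before IL1B, 37.6% before IL1A and 72% before IRAK2, beside a median of 58% over all windows. These matches describe letters and carry no information on binding.

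IL18 (ENSG00000150782), which encodes a ligand that cells of many epithelia keep as a precursor, was the most abundant of the 10 genes per length. It lies on chromosome 11, from 112143253 to 112164096. Its normalised counts were 6012, 4072 and 3611 in WT and 7251, 4986 and 5349 in POLDIP2 KO, and the highest value of each line came from the library numbered 1. The values of the lines overlapped. The limma estimate for IL18 was 0.38 on the log2 scale, with a 95% confidence interval from -0.16 to 0.91 (limma adjusted p = 0.976, exact permutation p = 0.3), which leaves out a change of 1.5-fold downward but not upward. Within replicate numbers IL18 was higher in POLDIP2 KO by 0.27, 0.29 and 0.57 on the log2 scale, and the interval with the replicate block was 0.14 to 0.61 (limma, unadjusted p = 0.00893, adjusted p = 0.228). DESeq2 with the replicate block gave IL18 an adjusted p of 0.0352, at a fold change under the 1.5 that a call needed.

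IL33 (ENSG00000137033), on chromosome 9 from 6215786 to 6257983, encodes a nuclear cytokine that is released from damaged barrier cells. It had 10, 0 and 0 reads in WT and 2, 6 and 3 in POLDIP2 KO, so that its highest value came from 1 WT library while the other WT libraries had none. IL33 was not tested by limma, and the exact two-sided permutation test gave p = 0.4.

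IL1RN (ENSG00000136689) encodes the antagonist that occupies IL1R1 without signalling, and lies on chromosome 2 from 113099315 to 113134016. Its normalised counts were 64.2, 38.1 and 24.0 in WT and 56.6, 19.5 and 47.7 in POLDIP2 KO, with means of 42.1 ± 20.4 and 41.3 ± 19.3 (SD, n = 3). The libraries of each line spread over more than the distance between the means. The log2 fold change was -0.05 with a 95% confidence interval of -1.33 to 1.23 (limma adjusted p = 0.9998), and its sign changed with the normalisation and with the libraries used. At this spread a change of IL1RN by 2-fold in either direction was not resolved.

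IL18BP (ENSG00000137496), on chromosome 11 from 71998613 to 72007315, had normalised counts of 114.3, 115.4 and 213 in WT and 173, 157 and 114.2 in POLDIP2 KO. The means were 148 in both lines. Its log2 fold change was 0.05 (95% confidence interval -0.70 to 0.79, limma adjusted p = 0.9998), and the difference within replicate numbers was 0.60, 0.44 and -0.89, so that its sign depends on the libraries taken.

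The receptor chains were not called. IL1R1 (ENSG00000115594), the signalling receptor for IL-1α and IL-1β, lies on chromosome 2 from 102064544 to 102179874 and had normalised counts of 162, 130.4 and 116 in WT and 137, 254 and 194 in POLDIP2 KO. The values overlapped through POLDIP2 KO replicate 1, which was lower than WT replicate 1. The limma estimate for IL1R1 was 0.48 ± 0.280 (standard error) on the log2 scale, within -0.18 to 1.14 at 95% confidence (adjusted p = 0.959, exact permutation p = 0.2), and the differences within replicate numbers were -0.25, 0.96 and 0.74.

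IL1RAP (ENSG00000196083), the chain shared by the receptors for IL-1 and IL-33, lies on chromosome 3 from 190514051 to 190659750. It had normalised counts of 1290, 2867 and 1403 in WT and 1336, 1941 and 1675 in POLDIP2 KO, and the library numbered 2 was the highest of each line. The 3 values of POLDIP2 KO lay inside the range of WT. The log2 fold change of -0.09 (95% confidence interval -0.83 to 0.66, limma adjusted p = 0.9998) changed sign when some single libraries were left out.

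IL1RL1 (ENSG00000115602), the IL-33 receptor, lies on chromosome 2 from 102311502 to 102352037 and had 0 reads in all 6 libraries. A count of 0 allows up to 2.44 to 3.69 normalised counts in a library of this depth, which covers counting error only. The receptor of IL-33 was thus not detectable, and IL33 itself had 10 reads at most.

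IRAK2 (ENSG00000134070) encodes a kinase that joins MYD88 below the IL-1 receptor and prolongs NF-kB signalling, and lies on chromosome 3 from 10164919 to 10243745. Its normalised counts were 144, 373 and 313 in WT and 349, 609 and 441 in POLDIP2 KO. Within each line the library numbered 1 was the lowest and that numbered 2 the highest, and the lines overlapped because POLDIP2 KO replicate 1 fell between WT replicates 2 and 3. For IRAK2 limma gave 0.82 ± 0.387 (standard error) on the log2 scale, within -0.09 to 1.74 at 95% confidence (adjusted p = 0.840, exact permutation p = 0.2).

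Taken by replicate number, IRAK2 was higher in POLDIP2 KO by 1.28, 0.70 and 0.49 on the log2 scale (SD 0.406, n = 3). The limma fit with the replicate block narrowed the interval of IRAK2 to 0.34 to 1.31 but did not call it (unadjusted p = 0.0069, adjusted p = 0.202), in a fit that called 0.204% of genes. DESeq2 with the replicate block did call IRAK2 (adjusted p = 0.0482), in a fit that called 2.53% of genes, and DESeq2 without the block did not (adjusted p = 0.700). In all, 3 of the 7 tested genes, IL1B, IRAK2 and IL18, were higher in POLDIP2 KO in all 3 same-numbered pairs and 4 were mixed. Over all genes tested, 17.0% were higher in all 3 pairs.

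**Figure D2:**
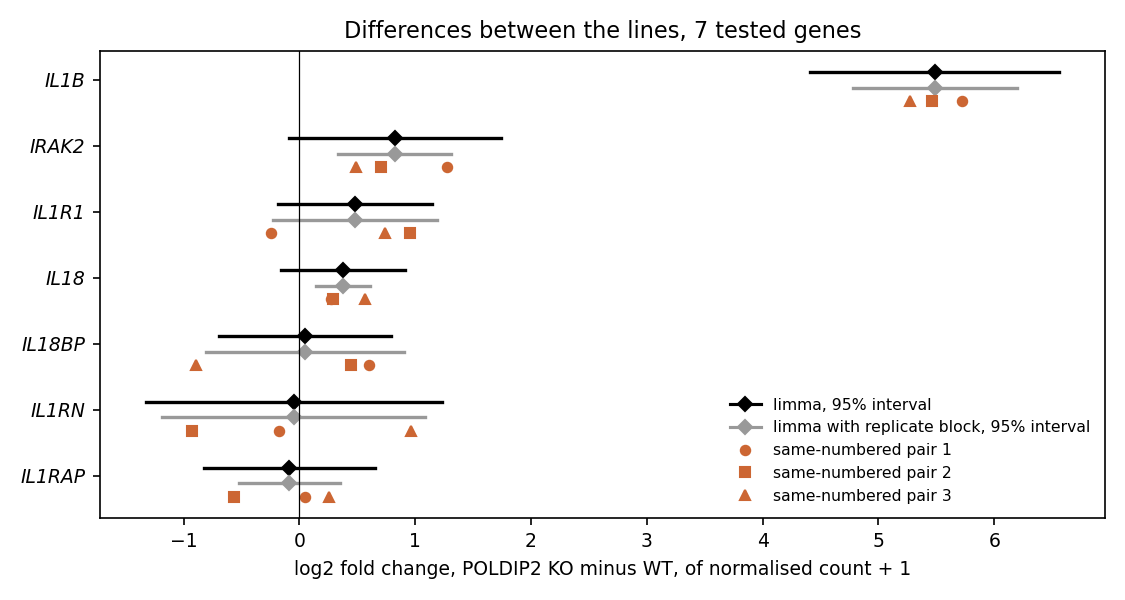
Log2 fold change of normalised count + 1, POLDIP2 KO minus WT, of the 7 tested genes. Black bars show the limma 95% confidence interval, grey bars that of limma with the replicate block, and small markers the difference within each replicate number. The black bar of IL1B runs from 4.41 to 6.56. The other 6 black bars include 0, with IRAK2 (-0.09 to 1.74) and IL18 (-0.16 to 0.91) lying mostly above it. The grey bars of IRAK2 (0.34 to 1.31) and IL18 (0.14 to 0.61) lie above 0.

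Per kilobase of annotated exon, the order of the mean levels in WT was IL18 at 1752 normalised counts per kb, IL1RAP at 165, IRAK2 at 80.6, IL18BP at 25.2, IL1R1 at 19.1, IL1RN at 11.3, IL1B at 2.20 and IL33 at 0.968, with IL1A and IL1RL1 at 0. In this order the ranges of the WT libraries overlapped between IL18BP and IL1R1, between IL1R1 and IL1RN, and between IL1B and IL33. In POLDIP2 KO the level of IL1B was 115 normalised counts per kb, which moved it from rank 7 to rank 4. Its libraries there ran from 66.3 to 161 per kb and overlapped those of IRAK2 at 102 to 177 and of IL1RAP at 119 to 173, and all lay above those of IL1R1, which were 35.7 or lower. In both lines IL18 was the most abundant of the 10, at 2250 normalised counts per kb in POLDIP2 KO. The exon length counts every annotated exon, so genes with long alternative exons are set too low.

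Most of the family was at or below the limit of detection in these cells. With 13 further ligands and receptors, chosen from the family by name, 21 ligands and receptors were looked at, of which 13 had no more than 3 reads in every library, 6 of them with none. The 7 that were tested held 1 call, IL1B. Of the 13 further genes, SIGIRR, an inhibitory receptor, and IL1RAPL1, a receptor best known from neurons, were tested and neither was called. The difference in SIGIRR was 0.02 on the log2 scale (limma adjusted p = 0.9998), a sign that depends on the libraries used, and that in IL1RAPL1 was -0.79 (limma adjusted p = 0.933). At an unadjusted p under 0.05 limma also had 0 of these, and DESeq2 called 0.

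On chromosome 2, 15 family genes lie in a receptor cluster and a ligand cluster. In the receptor cluster, from 101991960 to 102452565, 5 of 6 genes had no reads at all and IL1R1 was the exception. In the ligand cluster, from 112773925 to 113134016, 7 of 9 genes stayed at 3 reads or fewer, and IL1B and IL1RN were tested. IL1B was the called gene of its cluster, and the 2 tested genes nearest to it on either side were not called. These were CKAP2L, 65.087 kb away with a log2 fold change of -0.03, SLC20A1, 165.926 kb away with 0.16, IL1RN, 262.499 kb away with -0.05, and PSD4, 320.509 kb away with 0.27. Each of the 4 overlapped between the lines and had a limma adjusted p of 0.9998.

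Genes that carry the signal from the IL-1 receptor to NF-kB were not called in either direction. Of 20 such genes, from the adaptor MYD88 and the kinases IRAK1 and IRAK4 to the subunits NFKB1 and RELA, 19 were tested, with a median log2 fold change of -0.07. At an unadjusted p under 0.05 limma also had 0 of the 19, and DESeq2 called 0. The extremes were IKBKB, a kinase that marks the NF-kB inhibitor for removal, at 0.54 (limma adjusted p = 0.959), TRAF6, the ubiquitin ligase below the IRAK kinases, at -0.39 (limma adjusted p = 0.819) and RELA at 0.33 (limma adjusted p = 0.933). MYD88 had 709, 476 and 309 normalised counts in WT and 678, 493 and 476 in POLDIP2 KO, so the receptor's adaptor was present in every library.

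Of 12 genes of IL-1 maturation and release, 8 were tested and 1 was called upward, beside 0.0817% of all genes tested. The called gene was CTSS, which encodes the lysosomal protease cathepsin S. CTSS had 0 reads in all WT libraries and 36, 35 and 31 in POLDIP2 KO, at least 11.5-fold higher against a floor of 3 reads per WT library (limma adjusted p = 0.0451). It lost the call with the replicate block (limma adjusted p = 0.0890) and with edgeR, with a pseudocount of 0.5 (limma adjusted p = 0.0543), and in each of the 6 fits that left out a library. Its mean was too low to be tested with a filter at a mean of 50. CASP1, which encodes the protease that cuts pro-IL-1β, had normalised counts of 84.1, 59.2 and 44.9 in WT and 282, 225 and 238 in POLDIP2 KO, without overlap. The log2 fold change of CASP1 was 2.01 and was not called by limma (adjusted p = 0.0720), as with CASP4, an inflammatory caspase, at 1.54 (limma adjusted p = 0.210).

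DESeq2 on the recovered reads called 3 of these genes, CTSS, CASP1 and CASP4, beside 1.66% of all genes. The inflammasome sensors NLRP3, NLRC4 and AIM2, and CASP5, had no more than 3 reads in any library. NLRP1, a sensor found in epithelia, had 2799, 1473 and 933 normalised counts in WT and 3868, 1074 and 1315 in POLDIP2 KO, with the library numbered 1 highest in each line. The adaptor PYCARD and the pore former GSDMD were detected in all 6 libraries, with log2 fold changes of -0.28 and 0.08 that were not called (limma adjusted p = 0.9998 for either).

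**Figure D3:**
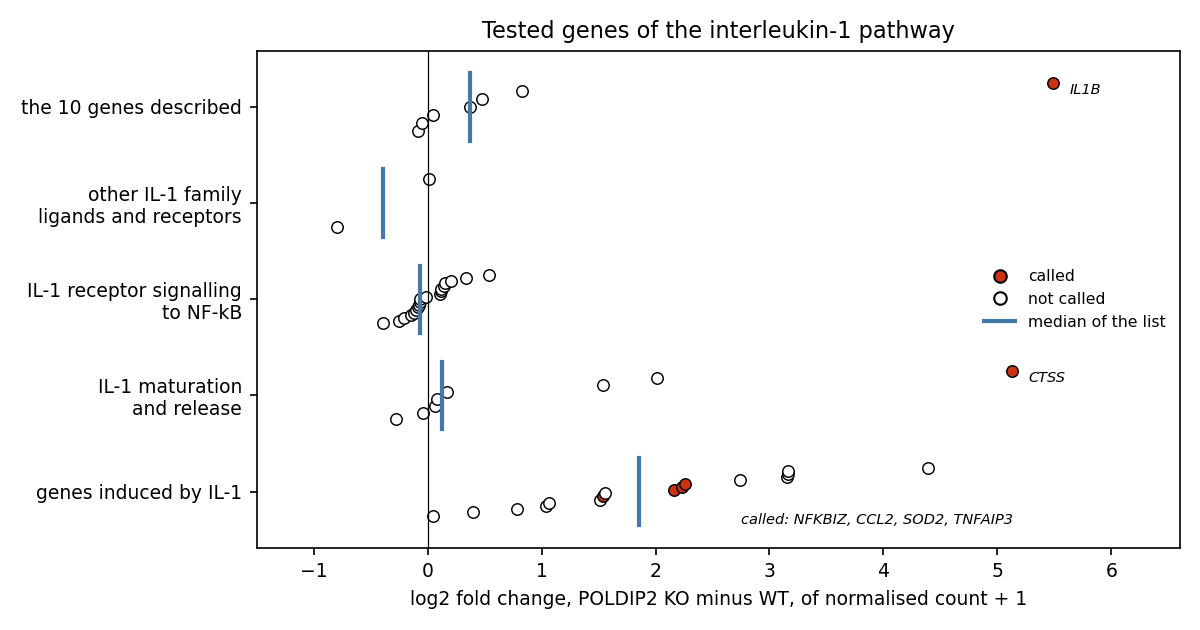
Log2 fold change of normalised count + 1, POLDIP2 KO minus WT, of each tested gene of the 10 genes and of 4 lists of the pathway, with filled points for genes called by limma and a bar at the median of each list. The medians are 0.38, -0.39, -0.07, 0.12 and 1.86 from top to bottom, and the called genes are IL1B, CTSS, NFKBIZ, CCL2, SOD2 and TNFAIP3.

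Of 21 genes known to be induced by IL-1 in many cell types, 16 were tested and 4 were called, all upward, beside 0.0817% of all genes tested. The median log2 fold change of the 16 was 1.86, all 16 had positive values, and 15 were higher in POLDIP2 KO without overlap, beside 5.46% of all genes tested. Several of these genes were picked out by the study from the same libraries, so their direction is no independent evidence. They also respond to other stimuli of NF-kB. The 4 called were CCL2, a monocyte chemokine, at a log2 difference of 2.16 (limma adjusted p = 0.0204), the mitochondrial superoxide dismutase SOD2 at 2.23 (limma adjusted p = 0.00961), and the feedback regulators NFKBIZ at 1.54 (limma adjusted p = 0.0231) and TNFAIP3 at 2.26 (limma adjusted p = 0.0340). With the replicate block TNFAIP3 was not called (limma adjusted p = 0.0586), and the other 3 were.

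The largest values of that list were those of neutrophil chemokines, which limma did not call. CXCL1 had 5, 1 and 1 reads in WT and 85, 69 and 35 in POLDIP2 KO (log2 fold change 4.39, limma adjusted p = 0.0862). CXCL2 had 5, 29 and 16 reads in WT and 111, 182 and 107 in POLDIP2 KO (log2 fold change 3.16, limma adjusted p = 0.181). CXCL8 was abundant, with normalised counts of 213, 1293 and 1323 in WT and 6279, 7717 and 5404 in POLDIP2 KO, with WT replicate 1 well below the other WT libraries (log2 fold change 3.16, limma adjusted p = 0.218). At the other end LIF, at 0.05, overlapped between the lines, and PTGS2 and VCAM1 had no more than 3 reads in any library. DESeq2 called 12 of the list, beside 1.66% of all genes. Among these were CXCL1 (DESeq2 adjusted p = 8.74e-06), CXCL2 (DESeq2 adjusted p = 7.38e-05) and CXCL8 (DESeq2 adjusted p = 0.0140). When 1 library was removed, limma called between 0 and 2 of the list. Of the 4 genes called with all libraries, SOD2 alone was called in any of these fits, without WT replicate 1 and without POLDIP2 KO replicate 1. CXCL8 was called without WT replicate 1 (log2 fold change 2.29, limma adjusted p = 0.0338) and in no other of these fits.

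IL1B is best known from monocytes and macrophages, so leukocyte markers were set beside it. Of 12 such markers, AIF1, TYROBP, CD163, CD3E and MS4A1 were at 0 in all 6 libraries. PTPRC, which encodes the pan-leukocyte protein CD45, had 0 reads in WT and 1, 4 and 7 reads in POLDIP2 KO, and was under the limit for testing. CD14 had 0, 3 and 2 reads in WT and 3, 8 and 3 in POLDIP2 KO. The summed level of the 12 markers ran from 1767 to 2284 normalised counts in WT and from 1902 to 2192 in POLDIP2 KO, most of it CD68, a lysosomal protein that other cells make too. Without CD68 the sums were 82.5 to 96.3 in WT and 45.5 to 63.5 in POLDIP2 KO. Most of these sums came from ITGAM, LYZ and CSF1R, none of which was called, while PTPRC and CD14 had more reads in POLDIP2 KO. PTPRC was the only one of the 12 that was higher in POLDIP2 KO without overlap, on 7 reads at most. Over all genes tested, 5.46% were higher in POLDIP2 KO without overlap. CSF1R was lower in POLDIP2 KO without overlap, with normalised counts of 48.2, 24.1 and 15.7 in WT and 4.92, 14.7 and 11.9 in POLDIP2 KO. The part of the PTPRC reads in the IL1B result was not tested.

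**Figure D4:**
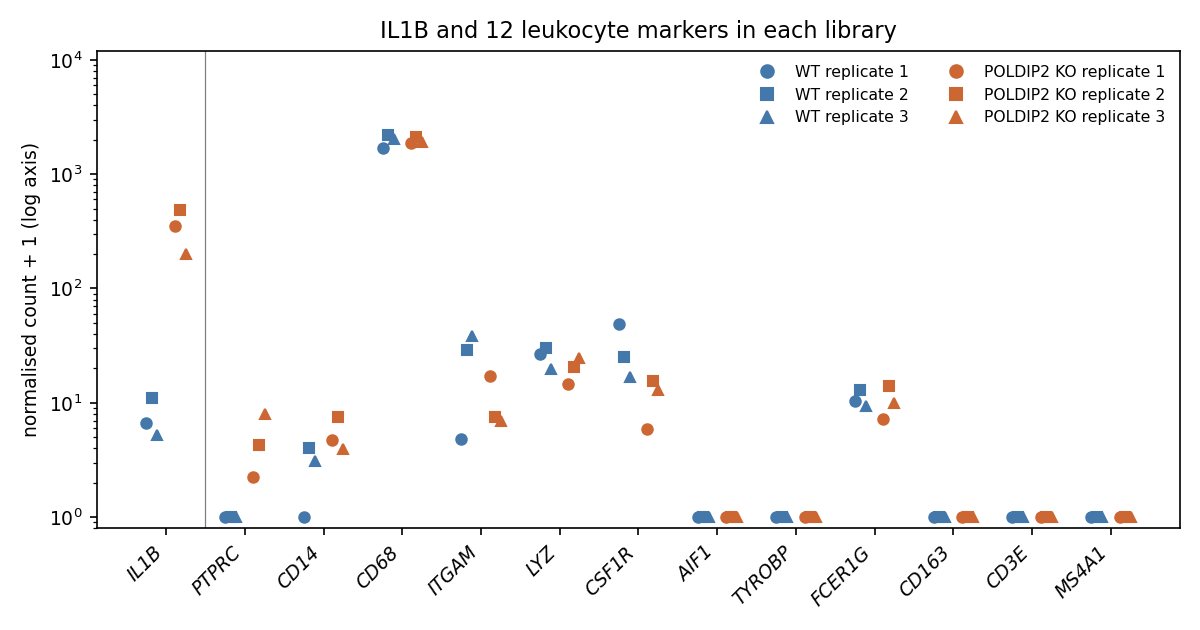
Normalised count + 1 (log axis) of IL1B and of 12 leukocyte markers in each of the 6 libraries, 1 point per library. IL1B lies between 199.6 and 485 in POLDIP2 KO, where PTPRC reaches 6.95 and 5 of the markers are at 0.

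Endothelial and mast cell markers, from cells that respond to IL-1 and IL-33, were looked at as well. The 5 endothelial markers summed to 39.7 to 199.3 normalised counts in WT and 45.7 to 138 in POLDIP2 KO. Most of this came from KDR and VWF, neither of which was called. KDR had 170, 33 and 19 reads in WT and 86, 54 and 25 in POLDIP2 KO, and VWF had 51 at most. CDH5, which defines these cells, had 1 read at most. The 5 mast cell markers summed to 3.13 to 6.02 in WT and 6.15 to 17.1 in POLDIP2 KO, without overlap, from CPA3 and MS4A2, while KIT, TPSAB1 and HDC were at 0 in all libraries. CPA3 had 1, 3 and 0 reads in WT and 1, 8 and 6 in POLDIP2 KO. MS4A2 had 4, 3 and 3 reads in WT and 4, 13 and 7 in POLDIP2 KO. Both were under the limit for testing, and CPA3 overlapped between the lines. The part of endothelial and mast cell markers in the values of IL1B, IL33 and IL1RL1 was not tested.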

How the data were processed

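RNA of 3 WT and 3 POLDIP2 KO replicates was analysed from a deposited table of normalised counts. The authors made this signal with Salmon 1.8, tximport and the size factors of DESeq2 1.34.0 on GRCh38, per the submitters' processing notes and the methods, and the annotation release is not given in the sources used here. Symbols and positions came from GENCODE release 44, which named 34152 of 37902 rows. SOD2 was named from a supplementary list.

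Reads were recovered from each column as multiples of its lowest value above 0, the step of 1 read, which gave whole numbers within 0.001 for 100% of values. In WT replicate 2 and POLDIP2 KO replicate 3 this step is near 1, so whole values say less there. Depth was 31532797 to 45795509 reads, and a count of 3 reads was used as the floor. Floors cover counting error only.

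Differences were tested with limma 3.58.1 in R 4.3.3 (lmFit, eBayes with trend) on log2(normalised count + 1) of the 14684 genes whose mean was 10 or more, with Benjamini-Hochberg adjustment over them. Calls needed an adjusted p under 0.05 and a fold change over 1.5. The recovered reads were tested with edgeR 4.0.16 (quasi-likelihood) and DESeq2 1.42.0. Other alternatives were each library left out, the replicate block, robust eBayes and eBayes without trend, recentred libraries, quantile normalisation, pseudocounts of 0.5 and 5, and a filter at a mean of 50 or none. Of these fits, the main limma fit alone was tested on simulated data. Python 3.11.15 with pandas 2.3.3 and matplotlib 3.10.9 was used for tables and plots.

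Values centred within each line correlated between same-numbered libraries at 0.315, 0.137 and 0.129 over 14684 genes, and at -0.259 to 0.147 otherwise. The value of 0.147, between WT replicate 3 and POLDIP2 KO replicate 2, was above the same-numbered values of 0.137 and 0.129. That the numbers pair the libraries was thus an assumption, which these values do not settle for replicates 2 and 3. The labels do not say what a number shares. The replicate block and the differences within replicate numbers rest on this assumption.

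The 10 genes and the lists were chosen with earlier results of these data known. Named were the 10 genes, the called genes and the 3 largest changes of each pathway list, POLDIP2, the marker genes, and the 5 tested genes whose profile was nearest to that of IL1B. NLRP1, PYCARD, GSDMD, MYD88 and LIF, the neighbours of IL1B and the silent genes were named after their values were seen.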

Additional observations from a re-analysis of the deposited data

How the results depend on the processing

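Over all genes, 25 were called, and this count became 16 with a mean of at least 50, 5 with edgeR and the replicate block, 270 with DESeq2, 394 with DESeq2 and the replicate block, and 0 to 5 when a library was left out. Of the 10 genes, 1 was called, and 2 with DESeq2 and the replicate block (IL1B and IRAK2). It was 0 in each limma fit without 1 library, in which 1 or 2 had an unadjusted p under 0.05, and 0 without replicate 1 of both lines, an alternative added after the data were seen, which gave 4 calls over all genes. IL1B had a log2 fold change of 5.37 there (limma adjusted p = 0.157). The maturation list went from 1 call to 0 with a pseudocount of 0.5, with a mean of at least 50 (where CTSS was not tested), with the replicate block, with edgeR with or without it, and whenever a library was left out, and to 3 with DESeq2. The list of genes induced by IL-1 went from 4 calls to 0 with edgeR and the replicate block, 12 with DESeq2, 13 with DESeq2 and the replicate block, 0 to 2 without 1 library and 1 without replicate 1 of both lines, and TNFAIP3 also lost its call with eBayes without trend. Apart from those named, the replicate block changed no call among the 10 genes.

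Signs turned for small differences. IL1RN became 0.0072 under quantile normalisation and 0.015 without replicate 1 of both lines, which turned IL18BP to -0.23 and SIGIRR to -0.32. Without 1 library, IL1RN ran from -0.39 to 0.41, IL1RAP from -0.30 to 0.28, IL18BP from -0.10 to 0.34 and SIGIRR from -0.21 to 0.15. The cause of these turns was not tested. With 3 libraries per line, the intervals of IL1RN, IL18BP and IL1RAP leave changes of 1.5-fold unresolved, and the WT level of IL1B rests on 20 reads in all, which limits the precision of its ratio.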

Other observations

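The genes whose profile over the 6 libraries was nearest to that of IL1B were looked up among all genes tested, by the root mean square distance between log2(normalised count + 1) values centred on their mean. The nearest was CTSS, at a distance of 0.559, followed by the unnamed gene ENSG00000285502 at 0.761, CXCL1 at 0.934, ALDH1L2 at 1.02 and IGFN1 at 1.06. CTSS, ENSG00000285502 and ALDH1L2, which encodes a mitochondrial folate enzyme, had 0 reads in WT and totals of 102, 163 and 62 reads in POLDIP2 KO. IGFN1, known from skeletal muscle, had 71 reads over the WT libraries and 2284 over those of POLDIP2 KO. Of the 5, CTSS was called (limma adjusted p = 0.0451), and the others had limma adjusted p values of 0.137, 0.0862, 0.186 and 0.0862. The distance mostly reflects the size of the difference between the lines, which all 5 share with IL1B.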
